A study of Rattus norvegicus with 12 samples.

Results

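Hox gene expression in rat cardiac fibroblasts, and in the GS cells made from such fibroblasts by viral Sall4 and Gata4, was described from RNA sequencing counts. Every row of the deposited gene count table with a name made of Hoxa, Hoxb, Hoxc or Hoxd and a paralog number was taken, which gave 38 of 32545 rows and 35 gene names. Hoxa5 stood on 3 rows and Hoxa11 on 2. The 12 libraries came from cultured heart fibroblasts, labelled as primary cultures, in 4 groups of 3 biological replicates. GS_diff2 were GS cells given CMM medium together with EGM2 solution, labelled as differentiating to cardiomyocytes and endothelium. GS_diff1 were GS cells given CMM medium alone, labelled as differentiating to cardiomyocytes. GS were the untreated, undifferentiated, immortalized cells made by viral overexpression of Sall4, a transcription factor of early embryos, and Gata4, a GATA factor needed in heart and endoderm. RCF were the untreated parental cells of wild-type genotype that served as controls. The treatment protocol field names the viral overexpression on all 12 samples, RCF included, although RCF carry the genotype WT. The sources used here do not say whether GS is 1 clone or how long each group was cultured, so the effect of a medium and of time in culture cannot be told apart, nor can the viral factors and immortalization.

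Hox genes encode homeodomain transcription factors that give cells along the body axis their positional identity. In each cluster the genes lie in order of paralog number, and the low-numbered genes at the 3′ end are used early and towards the head, the high-numbered genes at the 5′ end later and towards the tail. Hox proteins bind DNA together with TALE homeodomain cofactors of the Pbx, Meis and Pknox families. Retinoic acid activates 3′ genes, Polycomb proteins keep clusters silent, and Trithorax proteins keep active genes on. Cultured fibroblasts are known to keep a Hox pattern that reflects the site they came from, and in the embryo anterior Hox genes mark progenitors of the outflow tract and the atria.

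Depth ranged from 16255682 to 23117864 counts per library. Of the 14399 genes tested, 71.3% were called in GS against RCF, that is, passed an adjusted p of 0.05 in edgeR's quasi-likelihood test, so a call is common in these data. The 11 fibroblast markers summed to 29181 to 29552 CPM in GS_diff2, 50757 to 52220 CPM in GS_diff1, 42855 to 46161 CPM in GS and 41102 to 44258 CPM in RCF, and they differed in direction. Of these, Col1a1 averaged 24370 ± 821 CPM (read counts normalised for library size with TMM factors) in GS and 28307 ± 463 CPM in RCF (SD, n = 3 each). Tcf21, a transcription factor that marks cardiac fibroblasts, averaged 0 CPM in GS_diff2, 0.0831 CPM in GS_diff1, 0.395 CPM in GS and 18.5 CPM in RCF, and the proteoglycan gene Dcn averaged 0.419, 0.0703, 1.002 and 32.8 CPM in the same order. Others were higher in GS, such as Pdgfra, at 688 CPM in GS and 97.4 CPM in RCF, and Lum, at 116 CPM in GS and 11.2 CPM in RCF. Leukocyte markers, 7 genes of which all 7 reached 1 CPM in RCF, summed to 32.2 to 34.0 CPM in GS_diff2, 16.5 to 17.5 CPM in GS_diff1, 23.1 to 27.0 CPM in GS and 106 to 111 CPM in RCF. The macrophage gene Adgre1 was at 0 in the GS-derived groups and at 14.3 CPM in RCF, whereas Cd14, most of the sum in the GS-derived groups, averaged 29.4 CPM in GS_diff2, 14.1 CPM in GS_diff1, 23.2 CPM in GS and 17.3 CPM in RCF. Neural and glial markers, 5 genes, summed to 12.6 to 13.2 CPM in GS_diff2, 10.1 to 12.8 CPM in GS_diff1, 21.6 to 24.4 CPM in GS and 65.996 to 66.246 CPM in RCF. Most of the RCF sum was Tubb3, at 59.3 CPM, whereas S100b averaged 11.2 CPM in GS and 4.32 CPM in RCF. Cardiomyocyte markers, 7 genes, summed to 36.04 to 37.9 CPM in GS_diff2 and 9.42 to 12.1 CPM in GS_diff1. They summed to 2.98 to 3.12 CPM in GS and 15.8 to 16.98 CPM in RCF. Of the 7 genes, 2 reached 1 CPM in GS_diff2 and 2 in GS_diff1. Most of each sum was Tnnt2, at 34.1 CPM in GS_diff2, 7.67 CPM in GS_diff1 and 15.1 CPM in RCF. In GS_diff2, Tnni3 averaged 1.84 CPM, Nppa averaged 0.0292 CPM and Myh7 was at 0. Smooth muscle markers, 4 genes, summed to 134 to 146 CPM in GS_diff2, 2067 to 2116 CPM in GS_diff1, 397 to 422 CPM in GS and 711 to 731 CPM in RCF. The GS_diff1 sum was mostly Tagln, at 1107 CPM, and Acta2, at 961 CPM. Cnn1 averaged 14.5 CPM in GS_diff1 and 1.52 CPM in RCF, and Myh11 averaged 3.38 and 4.53 CPM. Endothelial markers, 5 genes, summed to 17.5 to 18.98 CPM in GS_diff2 and 17.6 to 22.7 CPM in GS_diff1. They summed to 13.6 to 15.9 CPM in GS and 13.6 to 17.2 CPM in RCF. Most of each sum was Tek. Vwf averaged 3.65 CPM in GS_diff2 and 0.892 CPM in RCF. Kdr averaged 0.0347 CPM in GS_diff2 and 0.577 CPM in RCF, and Cdh5 0.0785 and 0.0342 CPM. Whether the media groups hold the cell types of their labels was not tested. Mesothelial markers, 5 genes, summed to 107 to 111 CPM in GS_diff2, 36.5 to 39.8 CPM in GS_diff1, 42.4 to 45.8 CPM in GS and 57.4 to 61.99 CPM in RCF. They differed in direction. Msln averaged 99.2 CPM in GS_diff2 and 2.77 CPM in RCF, and Krt19 7.41 and 0.415 CPM. Wt1 averaged 2.02 CPM in GS_diff2 and 37.2 CPM in RCF, Lrrn4 0.183 and 16.2 CPM, and Upk3b 0 and 3.54 CPM. The part of these other cells in the Hox values was not tested, and in bulk RNA fewer cells of a type and less RNA per cell cannot be told apart.

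Hox transcripts were rare in every group. Counts were found on 26 of the 38 rows, and 12 rows were at 0 in all 12 libraries. At least 1 count was found for 20 rows in GS_diff2, 18 in GS_diff1, 19 in GS and 14 in RCF. Only 10 rows, Hoxb2, Hoxb3, Hoxb4, Hoxc4, Hoxc9, Hoxc13, Hoxd4, Hoxd8, Hoxd9 and Hoxd13, passed the filter on low counts and were tested, and 8 of them, without Hoxc4 and Hoxc9, reached a mean of 1 CPM in a group. The other 16 rows with counts held at most 62 counts over all libraries, the total of Hoxc12. A row passes the filter through the group in which it is high, so the counts of calls below describe these 10 rows and not the family. Of 165 other homeobox rows in the table, 68 were tested (41.2%), against 26.3% of the Hox rows. The Hox rows include 11 Hoxa rows, none of them tested, for which a 0 is uncertain, as described below.

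The clusters differed in how much of this signal they carried. The Hoxa rows, on chromosome 4 and an unplaced scaffold of the Rnor_6.0 build, held 10 counts in all, 8 of their 11 rows were at 0, and none was tested. In this build 11 Hox-A proteins stand on 28 rows, each on more than 1, and how reads that match several copies were treated is not given, so a 0 for Hoxa is uncertain. With the rows named as Hox-A only in their description added, the Hox-A counts were 10 in GS_diff2, 8 in GS_diff1, 4 in GS and 4 in RCF. The Hoxb rows on chromosome 10 held 544 counts, the Hoxc rows on chromosome 7 held 496 and the Hoxd rows on chromosome 3 held 766. Of 8 microRNA rows in these clusters, 7 were at 0, and Mir10b, which lies inside the Hoxd4 row, had 1 count.

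Ranges of paralog number, pooled over the clusters, separated the GS-derived groups from the parental cells. Pooled ranges cannot tell position from cluster, since the clusters differed too. Hoxb held 432 of 732 Hox counts in RCF and 40 of 415 in GS, and Hoxc held 20 in RCF and 201 in GS. Paralogs 9 to 13, the 5′ genes, made up 57.4% to 61.5% of a library's Hox counts in GS_diff2, 63.2% to 70.8% in GS_diff1, 68.3% to 73.3% in GS and 7.14% to 14.5% in RCF. Paralogs 1 to 4, the 3′ genes, made up 20.6% to 26.0% in GS_diff2, 17.1% to 23.2% in GS_diff1, 11.4% to 18.3% in GS and 67.5% to 77.7% in RCF. The libraries of GS, GS_diff1 and GS_diff2 lay apart from those of RCF in both shares, and the shares of paralogs 5 to 8 overlapped in all 4 groups. In RCF, Hoxb3 held 267 of the 525 counts of paralogs 1 to 4. The 3′ gene Hoxc4 went the other way, with 26 summed counts in GS and 7 in RCF. A large part of the 5′ share in RCF was 1 gene, Hoxd9. Without Hoxd9 the 5′ share averaged 43.6% ± 1.93 in GS_diff2, 61.5% ± 3.67 in GS_diff1, 64.8% ± 3.15 in GS and 0.776% ± 0.703 in RCF (SD, n = 3 each). These shares describe the members' own counts and were not tested.

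**Figure D1:**
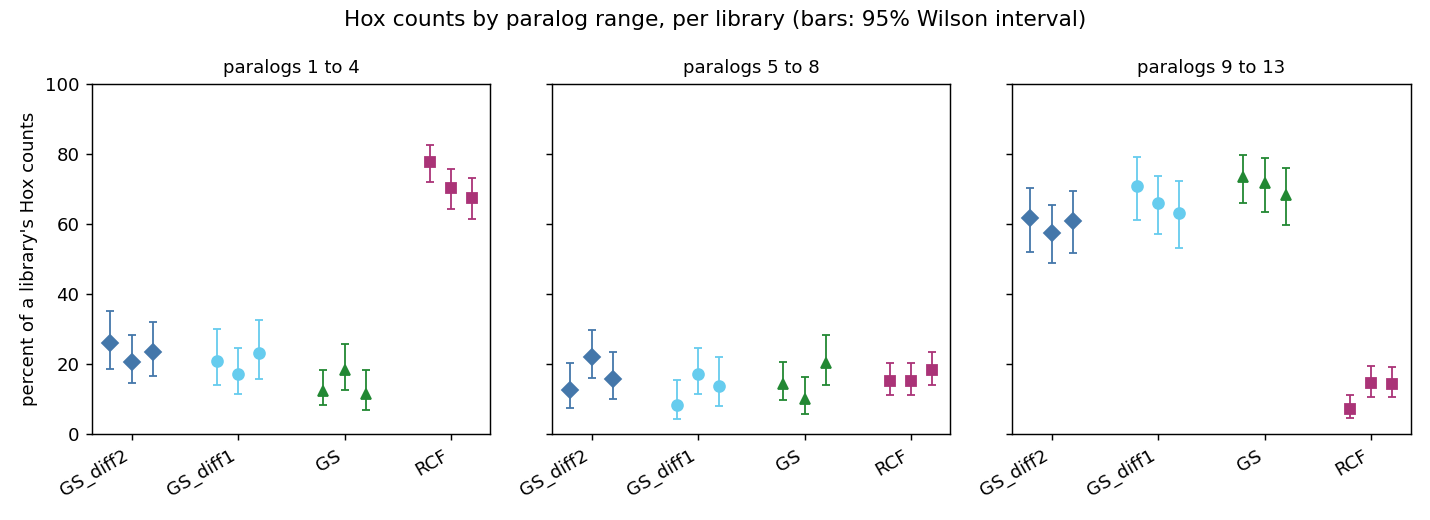
Share of each library's Hox counts (percent, y axis) that came from paralogs 1 to 4, 5 to 8 and 9 to 13, with 1 point per library and a 95% Wilson interval that covers counting error only; groups run from GS_diff2 to RCF. Paralogs 9 to 13 made up 57.4% or more in each GS-derived library and 14.5% or less in each RCF library.

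The sum over all Hox rows averaged 5.79 ± 0.340 CPM in GS_diff2, 5.42 ± 0.821 CPM in GS_diff1, 7.63 ± 0.269 CPM in GS and 11.5 ± 1.25 CPM in RCF. Hoxb took 0.542 ± 0.0723 CPM in GS_diff2, 0.679 ± 0.338 CPM in GS_diff1, 0.775 ± 0.448 CPM in GS and 6.72 ± 0.225 CPM in RCF. Hoxc ran the other way, at 2.24 ± 0.145 CPM in GS_diff2, 2.36 ± 0.279 CPM in GS_diff1, 3.69 ± 0.613 CPM in GS and 0.306 ± 0.209 CPM in RCF. The Hoxd sums were closer to each other, at 2.90 ± 0.278 CPM in GS_diff2, 2.35 ± 0.236 CPM in GS_diff1, 3.12 ± 0.463 CPM in GS and 4.44 ± 1.27 CPM in RCF (SD, n = 3 each).

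**Figure D2:**
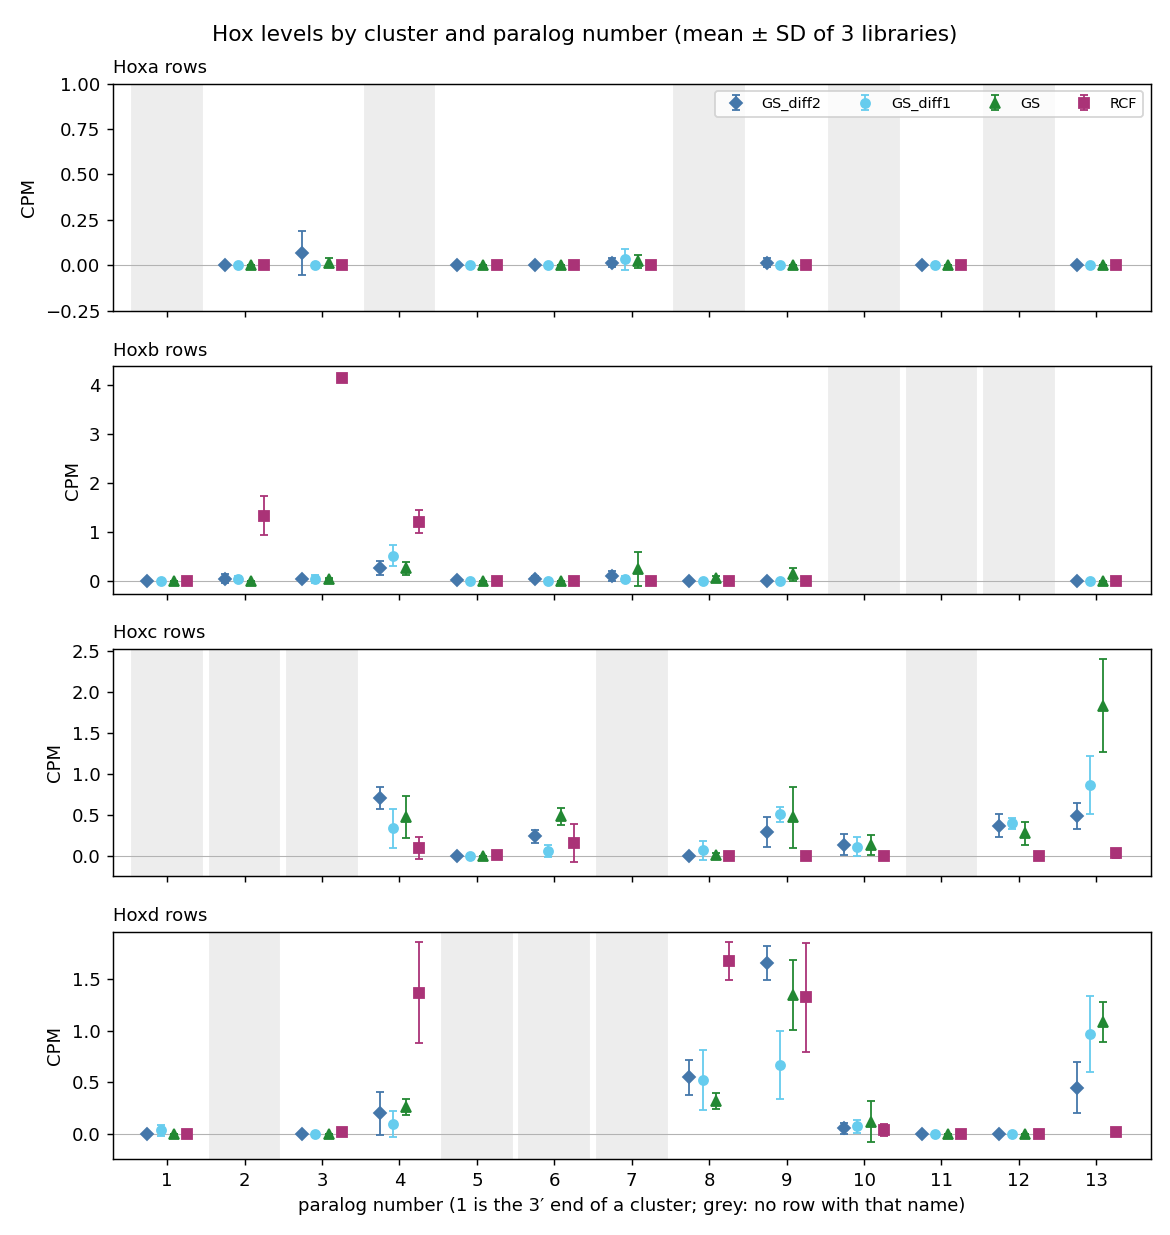
Mean CPM ± SD over 3 libraries (y axis, linear, own scale per panel) of each named Hox gene by paralog number (x axis), 1 panel per cluster, rows of 1 name summed; grey columns have no row of that name. In Hoxb the RCF squares stand high at paralogs 2 to 4, in Hoxc the GS triangles stand high at 13, and in Hoxd RCF is high at 4 and 8 and GS at 13.

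The Hoxd cluster held all of these patterns side by side. On chromosome 3 of Rnor_6.0, in order from the 5′ end on the plus strand, Hoxd13 lies at 61590376 to 61593692, Hoxd9 at 61620192 to 61622359, Hoxd8 at 61627383 to 61628628 and Hoxd4 at 61634005 to 61651056. Hoxd10 had 15 counts and Hoxd11 and Hoxd12, between Hoxd13 and Hoxd9, had 0. RefSeq promoter windows were available for 20 Hox names, 5 of them tested. The windows of the 4 tested Hoxd genes are shown since neighbouring genes of 1 cluster differed in direction. They cover the 250 bases before the RefSeq start on the plus strand of GRCr8, a later build than that of the counts. Capitals mark CG dinucleotides.
Hoxd13 (chr3:79977827-79978076): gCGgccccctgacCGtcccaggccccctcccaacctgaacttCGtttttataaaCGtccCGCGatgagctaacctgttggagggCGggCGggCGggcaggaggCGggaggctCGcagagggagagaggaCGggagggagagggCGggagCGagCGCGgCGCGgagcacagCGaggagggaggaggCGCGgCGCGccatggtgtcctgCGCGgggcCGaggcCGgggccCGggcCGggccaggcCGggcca
Hoxd9 (chr3:80007756-80008005): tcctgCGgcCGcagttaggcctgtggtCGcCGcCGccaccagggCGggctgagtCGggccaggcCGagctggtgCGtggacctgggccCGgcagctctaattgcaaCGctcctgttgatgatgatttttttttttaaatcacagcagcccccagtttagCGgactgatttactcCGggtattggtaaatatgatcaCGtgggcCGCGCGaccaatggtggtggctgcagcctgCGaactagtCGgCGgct
Hoxd8 (chr3:80014973-80015222): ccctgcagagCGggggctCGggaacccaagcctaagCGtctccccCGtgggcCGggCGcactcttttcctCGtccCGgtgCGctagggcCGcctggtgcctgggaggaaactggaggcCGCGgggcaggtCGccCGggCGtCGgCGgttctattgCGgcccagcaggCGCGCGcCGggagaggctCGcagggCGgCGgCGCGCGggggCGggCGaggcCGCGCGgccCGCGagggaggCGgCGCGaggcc
Hoxd4 (chr3:80021636-80021885): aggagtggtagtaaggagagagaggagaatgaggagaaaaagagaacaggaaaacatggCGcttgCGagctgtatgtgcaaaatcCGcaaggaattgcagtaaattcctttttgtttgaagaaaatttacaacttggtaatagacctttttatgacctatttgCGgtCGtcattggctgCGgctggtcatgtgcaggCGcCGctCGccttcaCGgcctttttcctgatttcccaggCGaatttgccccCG
The Hoxd8 window held 38 CG dinucleotides, that of Hoxd13 held 30, that of Hoxd9 held 20 and that of Hoxd4 held 12. The median was 20 over the 21 Hox windows and 5 over all 33469 windows of the table, and the median GC content was 60% over the Hox windows and 51.2% over all. The letters AGATAA, a form of the motif bound by GATA factors, were searched on both strands. None of the 21 Hox windows held them, and 10.3% of all windows did. TGACAG, a form of the motif bound by TALE cofactors, was in 3 Hox windows, those of Hoxa2, Hoxa3 and Hoxa4, and in 15.8% of all windows. A match or its lack in these windows is a description of letters only.

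In GS against RCF, the 3′ genes Hoxb2, Hoxb3, Hoxb4 and Hoxd4 fell, as did Hoxd8, and Hoxc4, Hoxc9, Hoxc13 and Hoxd13 rose. Of the 10 tested Hox genes, 4 were higher and 5 lower by edgeR's quasi-likelihood test, against a background of 71.3% of all tested genes called, 35% higher and 36.3% lower. The GS and RCF libraries did not overlap for 9 of the 10, and for 74.2% of all tested genes. The median difference was -1.08 on the log2 scale over the 10 genes and -0.03 over all tested genes, and it is the same with the 2 genes at 0 in a group, Hoxb2 and Hoxc9, at their bounds. The comparison bears on what the viral factors and immortalization went with in the parental fibroblasts. Hox genes were also compared by level per gene length (RPKM, from CPM and the deposited gene length). Of the tested genes, the highest in GS were Hoxc13 at 1.86 ± 0.575 RPKM, Hoxd9 at 0.750 ± 0.188, Hoxc9 at 0.517 ± 0.406, Hoxd13 at 0.438 ± 0.0787 and Hoxd8 at 0.377 ± 0.0936 RPKM. The highest in RCF were Hoxd8 at 2.02 ± 0.224 RPKM, Hoxb3 at 1.94 ± 0.00610, Hoxb2 at 1.25 ± 0.376, Hoxd9 at 0.736 ± 0.294, Hoxb4 at 0.688 ± 0.131 and Hoxd4 at 0.508 ± 0.183 RPKM (SD, n = 3 each). In GS, neighbours in this order below Hoxc13 differed by less than the larger of their SDs. In RCF this held for Hoxd8 and Hoxb3, for Hoxd9 and Hoxb4, and for Hoxb4 and Hoxd4.

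Hoxb3, a gene of the hindbrain and pharyngeal arches in the mouse, had the highest CPM of any Hox gene in these libraries. It had 1, 2 and 0 counts in the GS_diff2 libraries, 0, 3 and 0 in GS_diff1, 1, 1 and 1 in GS, and 98, 81 and 88 in RCF. Every GS-derived library lay below every RCF library. By summed counts, GS held 75.6-fold less Hoxb3 than RCF (95% counting interval 25.6 to 369, adjusted p = 4.22e-10 in edgeR's quasi-likelihood test), GS_diff1 80.4-fold less (27.2 to 393, adjusted p = 2.21e-10) and GS_diff2 84.8-fold less (28.7 to 414, adjusted p = 1.98e-10). The 3 comparisons share the RCF libraries.

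Hoxb2, which patterns the hindbrain in the mouse, had 3, 0 and 0 counts in GS_diff2, 0, 2 and 1 in GS_diff1, 0 in all 3 GS libraries, and 28, 35 and 22 in RCF. The groups derived from GS and RCF did not overlap. With each GS library set to a floor of 3 counts, GS held at least 7.97-fold less Hoxb2 than RCF (adjusted p = 2.62e-06, edgeR's quasi-likelihood test). It was 25.6-fold lower in GS_diff1 (8.47 to 127) and 27.0-fold lower in GS_diff2 (8.93 to 134) than in RCF. Hoxb4, known for expanding blood stem cells in the mouse, had 5, 3 and 8 counts in GS_diff2, 6, 13 and 11 in GS_diff1, 3, 7 and 4 in GS, and 34, 19 and 26 in RCF. It fell in GS against RCF by 2.20 ± 0.556 on the log2 scale (SE, adjusted p = 0.000847) and in GS_diff2 by 2.18 (adjusted p = 0.000729). In GS_diff1 against RCF its difference of -1.21 (adjusted p = 0.0300) no longer passed without RCF replicate 1, RCF replicate 3 or GS_diff1 replicate 1, nor with no filter, with adjusted p up to 0.144.

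Hoxb1, at the 3′ end of the cluster, and Hoxb13, at its 5′ end, were at 0 in all 12 libraries. Between them, Hoxb5 had 1 count, Hoxb6 had 4, Hoxb7 had 22, Hoxb8 had 3 and Hoxb9 had 8. The counts of Hoxb7, Hoxb8 and Hoxb9 lay in GS-derived libraries, with 0 in RCF.

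The Hoxc genes called in GS were all higher than in RCF. Hoxc13, a regulator of hair and nail keratin genes, had 12, 12 and 6 counts in GS_diff2, 16, 25 and 10 in GS_diff1, 32, 43 and 24 in GS, and 0, 0 and 2 in RCF. Every GS-derived library lay above every RCF library. Hoxc13 was 58.3-fold higher in GS than in RCF by summed counts (95% counting interval 15.7 to 488, adjusted p = 5.48e-08, edgeR's quasi-likelihood test), 28.2-fold in GS_diff1 (7.42 to 239) and 15.7-fold in GS_diff2 (3.99 to 136). Hoxc9, which sets thoracic identity in the mouse spinal cord, had 2, 7 and 9 counts in GS_diff2, 12, 11 and 7 in GS_diff1, 5, 5 and 14 in GS, and 0 in all 3 RCF libraries. It was at least 3.36-fold higher in GS (adjusted p = 0.000250), at least 3.62-fold in GS_diff1 (adjusted p = 0.000119) and at least 2.08-fold in GS_diff2 (adjusted p = 0.00131) than in RCF, against the floor.

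Hoxc4, the most 3′ Hoxc gene with a row, had 16, 13 and 14 counts in GS_diff2, 7, 2 and 10 in GS_diff1, 9, 13 and 4 in GS, and 6, 1 and 0 in RCF. The GS_diff1 and RCF libraries overlapped. Hoxc4 was higher in GS than in RCF by 2.09 ± 0.808 on the log2 scale (SE, adjusted p = 0.0226), a call that was lost without RCF replicate 2, RCF replicate 3 or GS replicate 2, with adjusted p up to 0.122. It was higher in GS_diff2 by 2.65 ± 0.765 (adjusted p = 0.00282), and its value in GS_diff1 against RCF was 1.57 ± 0.842 (adjusted p = 0.0918), which passed the threshold without RCF replicate 1 or GS_diff1 replicate 2.

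The untested Hoxc rows held few counts. Hoxc12, next to Hoxc13, had 9, 10 and 4 counts in GS_diff2, 7, 8 and 8 in GS_diff1, 9, 5 and 2 in GS, and 0 in all 3 RCF libraries, and Hoxc10 had 0, 6 and 3 in GS_diff2, 0, 2 and 4 in GS_diff1, 5, 3 and 0 in GS and 0 in RCF. With no filter on low counts, edgeR also called Hoxc12 (adjusted p = 0.000557), Hoxc10 (adjusted p = 0.0337), Hoxb7 (adjusted p = 0.0102) and Hoxb9 (adjusted p = 0.0491) in GS against RCF, all higher and all at 0 in RCF. In the GS libraries Hoxb7 had 2, 0 and 10 counts, so most lay in 1 library, and Hoxb9 had 4, 0 and 4. The share of all genes called with no filter is not given here, so these calls have no background beside them. Hoxc6 had 3, 7 and 5 counts in GS_diff2, 3, 1 and 0 in GS_diff1, 13, 7 and 7 in GS, and 1, 0 and 9 in RCF, and GS_diff1 fell below GS for it with no filter (log2 difference -2.73, adjusted p = 0.0157).

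**Figure D3:**
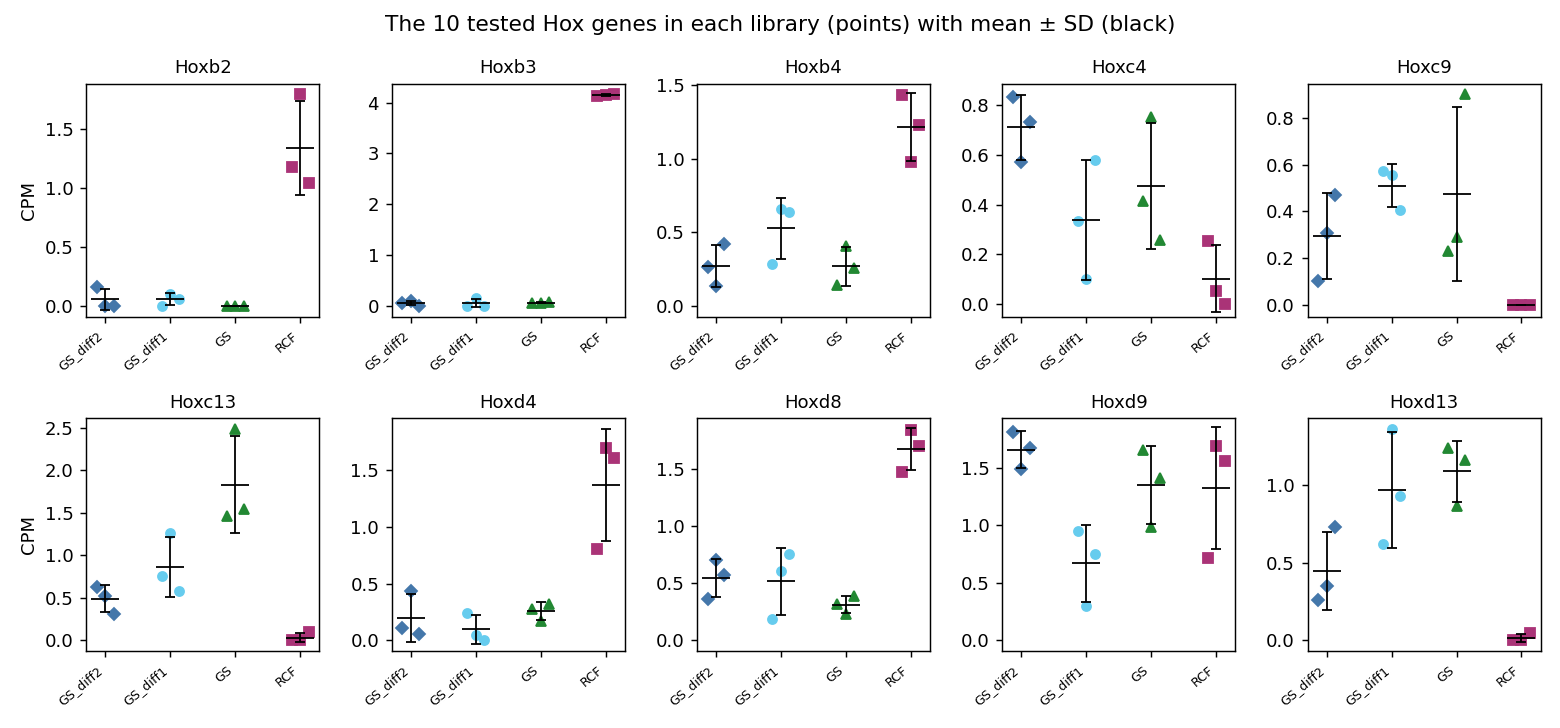
CPM (y axis, linear, own scale per panel) of the 10 tested Hox genes in each of the 12 libraries, 1 point per library, with mean ± SD of 3 libraries in black. Hoxb2 to Hoxb4, Hoxd4 and Hoxd8 are highest in RCF, Hoxc9, Hoxc13 and Hoxd13 are at or near 0 there, and Hoxd9 overlaps between GS and RCF.

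Among the Hoxd genes, Hoxd13, which patterns the digits, had 5, 8 and 14 counts in GS_diff2, 13, 27 and 16 in GS_diff1, 27, 15 and 18 in GS, and 0, 0 and 1 in RCF. The GS-derived libraries all lay above the RCF libraries. Hoxd13 was 70.6-fold higher in GS than in RCF by summed counts (95% counting interval 12.2 to 2836, adjusted p = 7.35e-07, edgeR's quasi-likelihood test), 62.0-fold in GS_diff1 (10.7 to 2490) and 28.3-fold in GS_diff2 (4.67 to 1160). The wide intervals follow from the 1 count in RCF.

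Hoxd8, a trunk-level gene, had 7, 16 and 11 counts in GS_diff2, 4, 12 and 13 in GS_diff1, 7, 4 and 6 in GS, and 35, 36 and 36 in RCF. It fell in GS against RCF by 2.40 ± 0.501 on the log2 scale (SE, adjusted p = 9.73e-05), in GS_diff1 by 1.71 (adjusted p = 0.00160) and in GS_diff2 by 1.59 (adjusted p = 0.00267). Hoxd4, a retinoic acid responsive gene of the hindbrain and neck, had 2, 10 and 1 counts in GS_diff2, 5, 1 and 0 in GS_diff1, 6, 3 and 5 in GS, and 19, 33 and 34 in RCF. The RCF libraries lay above the others for both genes. Hoxd4 fell by 2.38 ± 0.640 in GS (adjusted p = 0.00154) against RCF, and its difference from RCF was -3.66 in GS_diff1 (adjusted p = 4.70e-05) and -2.68 in GS_diff2 (adjusted p = 0.000501).

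Hoxd9, active in the limb and the lower trunk of the mouse, lies between these genes and had 35, 34 and 32 counts in GS_diff2, 20, 6 and 13 in GS_diff1, 36, 17 and 22 in GS, and 17, 33 and 33 in RCF. The GS and RCF libraries overlapped. The difference between GS and RCF was 0.04 ± 0.402 on the log2 scale (SE, adjusted p = 0.930). Its sign turned with library totals in place of TMM factors (-0.056), without RCF replicate 1 (-0.26) and without GS replicate 1 (-0.14). Against RCF, GS_diff2 had 0.33 (adjusted p = 0.461) and GS_diff1 had -0.97 (adjusted p = 0.0417). The GS_diff1 call was lost with limma-voom, in a fit of the 2 groups only, and without RCF replicate 2, RCF replicate 3, GS_diff1 replicate 2 or GS_diff1 replicate 3, with adjusted p up to 0.222.

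The nearest tested gene on each side of Hoxb, Hoxc and Hoxd was set beside them. Only protein-coding genes were searched, and rows with provisional names such as LOC were left out. Mtx2, 68.4 kb beyond the Hoxd cluster, averaged 32.5 ± 3.27 CPM in GS and 37.2 ± 1.06 CPM in RCF, and Lnp, 95.6 kb before it, averaged 25.8 ± 1.51 CPM in GS and 26.2 ± 2.34 CPM in RCF. Smug1, 124 kb after Hoxc, averaged 24.7 ± 2.49 CPM in GS and 25.6 ± 0.610 CPM in RCF. Atp5g2, 259 kb before Hoxc, averaged 204 ± 7.08 CPM in GS and 205 ± 6.04 CPM in RCF. Other genes near these clusters differed in both directions, with Hnrnpa1, 215 kb after Hoxc, at 183 ± 10.6 CPM in GS and 281 ± 4.03 CPM in RCF, and Atf2, 794 kb before Hoxd, at 44.8 ± 2.34 CPM in GS and 33.6 ± 0.920 CPM in RCF. Atp5g1, 133 kb before Hoxb, averaged 62.2 ± 3.05 CPM in GS and 45.5 ± 2.64 CPM in RCF, and Snx11, 413 kb after it, averaged 23.1 ± 2.27 CPM in GS and 37.7 ± 3.97 CPM in RCF (SD, n = 3 each). These neighbours stood well above the Hox genes in CPM, which is not a comparison per length and follows in part from naming tested genes only. Nearer genes that were not tested lay low. Ttll6, 32.2 kb before Hoxb, averaged 0.0407 CPM in GS and 0.0422 CPM in RCF, and Skap1, 93.7 kb after it, 0.0998 and 0 CPM. Tbca, 28.0 kb before Hoxc, averaged 0.124 CPM in GS and 0.0614 CPM in RCF, and Calcoco1, 210 kb before it, 0.0153 and 0.0171 CPM.

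GS_diff1 against GS asks what CMM medium went with. Of the 10 tested Hox genes, 2 were called, both lower, against 64.3% of all tested genes called (32% higher, 32.3% lower). The 10 genes averaged 1.83 CPM or less in GS, with SEs of 0.430 to 1.96 on the log2 scale. The share over all genes includes far better counted ones, such as Pbx2 at 55.7 CPM in GS with an SE of 0.0531. In each medium comparison the shares cannot tell few changes from few counts. The median difference was -0.13 over the 10 genes and -0.00244 over all. Hoxd9 averaged 0.669 ± 0.332 CPM in GS_diff1 and 1.35 ± 0.339 CPM in GS, a difference of -1.01 ± 0.430 on the log2 scale (SE, adjusted p = 0.0409, edgeR's quasi-likelihood test). Hoxc13 averaged 0.867 ± 0.353 CPM in GS_diff1 and 1.83 ± 0.568 CPM in GS, a difference of -1.07 ± 0.465 (adjusted p = 0.0461). The libraries of GS_diff1 and GS did not overlap for these 2 genes, as for 67% of all tested genes. Neither call was stable: library totals, the replicate block, and leaving out GS replicate 1, GS replicate 3 or GS_diff1 replicate 3 each ended both. Hoxc13 was also lost with no filter (adjusted p = 0.0572) and without GS replicate 2 or GS_diff1 replicate 1 and Hoxd9 without GS_diff1 replicate 2, with adjusted p up to 0.222 and 0.216. No 3′ gene was called, with 0.99 ± 0.603 for Hoxb4 (adjusted p = 0.156) and -1.28 ± 0.886 for Hoxd4 (adjusted p = 0.212). Each of these 2 genes had 14 summed counts in GS, which left little room for a fall to be called. Hoxd4 passed the threshold without GS_diff1 replicate 1 (adjusted p = 0.0402).

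GS_diff2 against GS asks what CMM medium with EGM2 went with. Again 2 of 10 Hox genes were called, both lower, against 67% of all tested genes called (33.3% higher, 33.7% lower). Both are 5′ paralogs, with 99 (Hoxc13) and 60 (Hoxd13) summed counts in GS. The 3′ genes Hoxb2, Hoxb3, Hoxb4, Hoxd4 and Hoxc4 held 0, 3, 14, 14 and 26 there, which left little room for a fall to be called. The 5′ genes Hoxc9 and Hoxd9 were not called. The median difference was -0.07 over the 10 genes and -0.000237 over all. Hoxc13 averaged 0.487 ± 0.158 CPM in GS_diff2 and 1.83 ± 0.568 CPM in GS, and every GS_diff2 library lay below every GS library, a separation seen for 70.3% of all tested genes. It fell by 1.89 ± 0.491 on the log2 scale (SE, adjusted p = 0.00122), and the call held in all 13 alternatives. Hoxd13 averaged 0.447 ± 0.250 CPM in GS_diff2 and 1.09 ± 0.195 CPM in GS, a difference of -1.29 ± 0.520 (adjusted p = 0.0307). That call was lost without GS replicate 1, GS replicate 3, GS_diff2 replicate 1 or GS_diff2 replicate 2, with adjusted p up to 0.128. Hoxd9 had 0.29 ± 0.398 (adjusted p = 0.540) and Hoxd8 had 0.81 ± 0.543 (adjusted p = 0.193). Both medium comparisons share the GS libraries.

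Between the media, GS_diff2 against GS_diff1 called 1 of 10 Hox genes, against 63.7% of all tested genes called (32.1% higher, 31.5% lower). Hoxd9 averaged 1.66 ± 0.163 CPM in GS_diff2 and 0.669 ± 0.332 CPM in GS_diff1, and its libraries in the 2 groups did not overlap, as for 67.8% of all tested genes. It was higher in GS_diff2 by 1.30 ± 0.423 on the log2 scale (SE, adjusted p = 0.00847), and the call was lost without GS_diff1 replicate 2 (adjusted p = 0.0694). Hoxd13 had -1.11 ± 0.522 (adjusted p = 0.0640) and passed the threshold with limma-voom, without GS_diff1 replicate 1 or without GS_diff2 replicate 3. The median difference was -0.07 over the 10 genes and 0.00394 over all tested genes.

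The differences of both media groups from RCF are given above gene by gene. GS_diff1 against RCF called 3 Hox genes higher and 6 lower of 10, with 75.4% of all tested genes called (38% higher, 37.4% lower), and the libraries did not overlap for 8 of the 10 and for 77.8% of all tested genes. GS_diff2 against RCF called 4 higher and 5 lower, with 72.5% called (37.1% higher, 35.4% lower), and 9 of the 10 and 76.4% of all did not overlap. The median Hox difference was -1.09 in GS_diff1 and -0.63 in GS_diff2, and the medians of all tested genes were 0.00651 and 0.0147.

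TALE cofactors, the partners of Hox proteins on DNA, were detected in every group. All 8 listed genes were tested in GS against RCF, of which 5 were higher, 2 lower and 1 not called, against 35% of all tested genes higher and 36.3% lower, with a median difference of 0.36 on the log2 scale. Pknox2 averaged 1.67 ± 0.677 CPM in GS and 27.8 ± 1.07 CPM in RCF, and fell by 4.03 ± 0.260 (SE, adjusted p = 4.35e-11). Meis3 fell by 0.54 ± 0.113 (adjusted p = 0.000138). Meis2, Pbx2, Pbx3 and Pknox1 were higher in GS by 0.46 to 0.57, and Meis1 by 0.25 ± 0.0685 (adjusted p = 0.00195), which did not pass with library totals (adjusted p = 0.0526). Pbx4 had -0.01 ± 0.456 (adjusted p = 0.983).

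**Figure D4:**
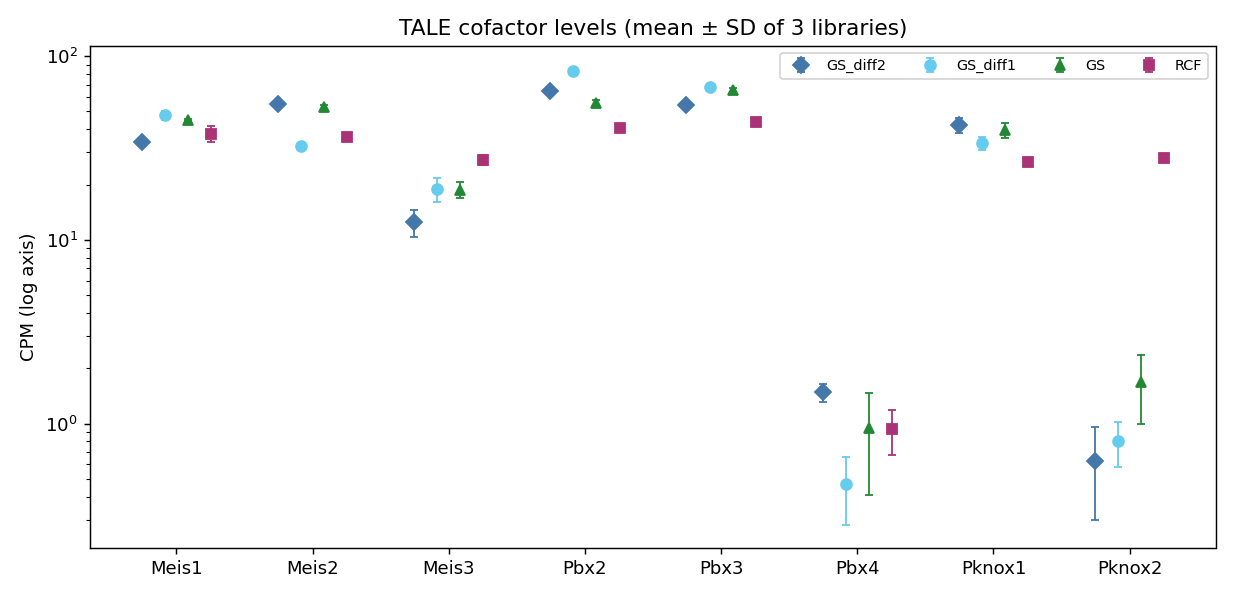
Mean CPM ± SD over 3 libraries (log y axis) of the 8 TALE cofactor genes, with groups from GS_diff2 to RCF. Pknox2 stands at 27.8 CPM in RCF and averages 1.67 CPM or less in the GS-derived groups.

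Of the 8 TALE genes, 1 was higher and 3 were lower in GS_diff1 against GS, where 64.3% of all tested genes were called. Pbx2 rose by 0.57 ± 0.0531 on the log2 scale (SE, adjusted p = 1.02e-10) and Meis2 fell by 0.71 ± 0.0609 (adjusted p = 1.62e-11). Pknox1 and Pknox2 were the other lower ones, and the call of Pknox1 (adjusted p = 0.0114) was lost with library totals and without GS replicate 3 or GS_diff1 replicate 1, with adjusted p up to 0.107. In GS_diff2 against GS, 1 was higher and 4 were lower, against 67% of all tested genes called: Pbx2 was higher by 0.21 ± 0.0535 (adjusted p = 0.00110), and Meis1, Meis3, Pbx3 and Pknox2 were lower. In GS_diff2 against GS_diff1, 3 were higher and 4 lower, against 63.7% of all called, with Meis2 higher by 0.77 ± 0.0604 (adjusted p = 2.01e-12) and Pbx4 by 1.65 ± 0.477 (adjusted p = 0.00333).

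Genes of retinoic acid handling and other listed inputs to Hox expression numbered 11, all tested, with 6 higher and 4 lower in GS against RCF (median 0.66 on the log2 scale), where 35% of all tested genes were higher and 36.3% lower. Cyp26a1, which degrades retinoic acid, averaged 145 ± 1.501 CPM in GS and 0.0798 ± 0.0328 CPM in RCF, and rose by 10.75 ± 0.126 (SE, adjusted p = 2.25e-33). Cyp26c1, of the same enzyme family, averaged 11.9 ± 1.28 CPM in GS and had 2 counts in RCF, a ratio of 386 (95% counting interval 106 to 3196). Aldh1a2, which makes retinoic acid, averaged 1.62 ± 0.705 CPM in GS and 49.3 ± 2.63 CPM in RCF, and fell by 4.91 ± 0.202 (adjusted p = 2.00e-12). Rarb, a retinoic acid receptor gene, fell by 3.15 ± 0.418 (adjusted p = 9.50e-08), and Aldh1a3 fell by 1.78 ± 0.422 (adjusted p = 0.000791). Related genes rose by the same test. Aldh1a1, at 0.704 CPM in GS and 0.124 CPM in RCF, rose by 2.45 ± 0.640 (adjusted p = 0.00118). The receptor gene Rara, at 102 CPM in GS and 38.1 CPM in RCF, rose by 1.41 ± 0.0522. Rarg, at 127 CPM in GS and 80.8 CPM in RCF, rose by 0.65 ± 0.0449. A link of these genes to the Hox levels was not tested.

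In the media, the synthesis enzymes Aldh1a2 and Aldh1a3 differed in direction. Aldh1a2 averaged 4.54 ± 0.318 CPM in GS_diff1, higher than GS by 1.47 ± 0.219 on the log2 scale (SE, adjusted p = 2.22e-05), and had 0 counts in all 3 GS_diff2 libraries, which was at least 10.9-fold lower than GS and at least 30.7-fold lower than GS_diff1 against the floor. Aldh1a3 averaged 8.38 ± 0.787 CPM in GS_diff2, 0.714 ± 0.538 CPM in GS_diff1 and 0.539 ± 0.276 CPM in GS, and was higher in GS_diff2 than in GS by 3.93 ± 0.412 (adjusted p = 2.91e-08). Aldh1a1 was higher in GS_diff2 than in GS by 1.55 ± 0.477 (adjusted p = 0.00539). Cyp26c1 fell in GS_diff1 against GS by 1.07 ± 0.191 (adjusted p = 1.51e-05). Of the 11 inputs, 1 was higher and 4 lower in GS_diff1 against GS, 2 were higher and 8 lower in GS_diff2 against GS, and 4 were higher and 4 lower in GS_diff2 against GS_diff1. Of all tested genes 64.3%, 67% and 63.7% were called in these comparisons, in that order. The Cyp26b1 difference between the media, -1.39 ± 0.466 (adjusted p = 0.0105), was lost without GS_diff1 replicate 3 or GS_diff2 replicate 1.

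Chromatin regulators of the clusters were also counted. Of 20 tested Polycomb genes, 9 were higher and 8 lower in GS against RCF (median -0.13 on the log2 scale), 9 higher and 8 lower in GS_diff1 against GS, 6 higher and 4 lower in GS_diff2 against GS, and 7 higher and 8 lower in GS_diff2 against GS_diff1. The shares of all tested genes called in these comparisons were 71.3%, 64.3%, 67% and 63.7%, in that order. Of 9 Trithorax and demethylase genes, 8 were higher in GS than in RCF and 1 was not called (median 0.49), against 35% of all tested genes higher and 71.3% called. In GS_diff1 against GS 2 were higher and 4 lower, in GS_diff2 against GS 2 were higher and 6 lower, and in GS_diff2 against GS_diff1 5 were lower, against 64.3%, 67% and 63.7% of all tested genes called. Ezh2, the Polycomb methyltransferase and a gene of dividing cells, averaged 69.4 ± 1.45 CPM in GS_diff2, 41.1 ± 3.84 CPM in GS_diff1, 15.96 ± 1.88 CPM in GS and 21.9 ± 0.614 CPM in RCF. Ezh2 rose over GS by 2.12 ± 0.0800 in GS_diff2 (SE, adjusted p = 3.39e-20) and by 1.37 ± 0.0812 in GS_diff1 (adjusted p = 3.29e-15). Phf19, a Polycomb accessory protein, rose in GS_diff2 by 2.76 ± 0.199 over GS and by 1.72 ± 0.186 over GS_diff1, and in GS_diff1 by 1.04 ± 0.200 over GS. Rbbp7, a histone-binding subunit shared with other complexes, rose in GS_diff1 over GS by 1.07 ± 0.0262. Other Polycomb genes fell, such as Ezh1 by 0.89 ± 0.0590 in GS_diff1 against GS and Rnf2 by 0.72 ± 0.0608 in GS_diff2 against GS.

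Of 6 genes upstream of the clusters or in the related ParaHox set, Cdx2 alone was tested. Cdx2, which activates posterior Hox genes in the mouse embryo, averaged 1.58 ± 0.115 CPM in GS_diff2, 0.733 ± 0.321 CPM in GS_diff1, 0.808 ± 0.137 CPM in GS and 0.386 ± 0.0927 CPM in RCF. It was higher in GS_diff2 than in GS_diff1 by 1.11 ± 0.421 on the log2 scale (SE, adjusted p = 0.0226), a call lost without GS_diff1 replicate 1, GS_diff2 replicate 2 or GS_diff2 replicate 3. Its difference was 1.06 ± 0.469 in GS against RCF (adjusted p = 0.0452) and 0.95 ± 0.418 in GS_diff2 against GS (adjusted p = 0.0457), values for which no library was left out in turn.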

How the data were processed

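Total RNA from 12 cultures was sequenced from Ovation libraries, per the labels' protocols, and the authors deposited 1 table of whole-number read counts per gene, not normalized, with gene names, positions and lengths. The submitters' processing notes name Bowtie 0.12.2 and the builds mm8 and Rnor_6.0; no counting program, annotation release or strand setting is named in the sources used here, so overlapping, antisense or duplicated genes may share reads. Groups came from the sample labels. Within groups the chi-square of all 12 library pairs was 4.44 to 7.57 times that of sampling noise, over genes with at least 50 counts.

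With TMM factors, the counts were fitted in edgeR 4.0.16 (R 4.3.3), with 1 quasi-likelihood model over all 12 libraries and a term per group. filterByExpr left 14399 genes tested, with 8 residual degrees of freedom and a biological coefficient of variation of 9.72%. Contrasts were two-sided, with p-values adjusted by Benjamini-Hochberg over all tested genes and a threshold of 0.05. Fold change errors are standard errors. Of the gene lengths used for RPKM, 19 of 38 Hox lengths are multiples of 3, as coding lengths are, so levels between genes compare unlike lengths. A gene with 0 counts in a group is compared with a floor of 3 counts per library, 0.127 to 0.193 CPM; ratios of summed counts carry exact binomial intervals at 95%. Floors and intervals cover counting error only. The scripts were tested on simulated data.

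The Hox members, the lists (TALE cofactors, ParaHox and upstream, Polycomb, Trithorax and demethylases, inputs) and the tests were chosen with earlier results of these data known. The text gives values for Hox genes with a mean of at least 1 CPM in a group and for the TALE genes. Up to 5 other listed genes are given, with the largest change among called genes with at least 1 CPM in the higher group. Hoxc4, Hoxc9, Hoxc12, Hoxc10 and Hoxc6 were named after their values were seen. So were Aldh1a1, Rara and Rarg in GS against RCF, and Ezh1 and Rnf2 in the media. Of 55 list symbols, 49 were tested; some genes of these lists are not reported here. Promoter windows came from a RefSeq table of GRCr8. Alternatives were library totals, RLE factors, no filter, DESeq2 1.42.0, limma-voom (limma 3.58.1), a fit of 2 groups only, a replicate block and leaving out each library.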

Additional observations from a re-analysis of the deposited data

How the results depend on the processing

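In GS against RCF, GS_diff1 against RCF and GS_diff2 against RCF, the number of called Hox genes stayed within 1.5 times its value under each alternative run, and so did the number of called cofactor, Polycomb, Trithorax and input genes in all 6 comparisons. The comparisons among GS-derived groups rest on few counts and moved. Hox genes called in GS_diff1 against GS numbered 2, but 0 with library totals, 0 with a replicate block and 0 to 2 with 1 library left out. In GS_diff2 against GS they numbered 2, and 1 to 2 with 1 library left out. In GS_diff2 against GS_diff1 they numbered 1, but 2 with limma-voom and 0 to 2 with 1 library left out. The causes were not tested. For Hoxd9, GS against RCF, the log2 difference of 0.04 turned to -0.056 with library totals and ran from -0.26 to 0.26 with 1 library left out. Without Hoxd9 counts, an alternative chosen after seeing the data, the share of paralogs 9 to 13 moved to 43.6% in GS_diff2, 61.5% in GS_diff1, 64.8% in GS and 0.776% in RCF.

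Same-numbered libraries did not deviate together: 0 of 18 correlations of their deviations passed 0.1 (range -0.0450 to 0.0759). The samples were therefore not treated as paired in the main fit. Such correlations cannot show whether same-numbered cultures were derived or handled together. With the replicate block, 9 Hox genes were called in GS against RCF, 0 in GS_diff1 against GS, 2 in GS_diff2 against GS and 1 in GS_diff2 against GS_diff1. Depth limits the Hox values: 3 counts correspond to 0.127 to 0.193 CPM, and most members lie at or below that.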
